A study of Mus musculus with 6 samples.

Results

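Serine protease inhibitors of the serpin family were examined in purified bone endothelial cells (BECs), with Serpina3n as the lead gene. The 9 genes are Serpina3n, Serpina3g, Serpina3f, Serpina3i, Serpine2, Serping1, Serpinf1, Serpinh1 and Serpinb2, listed by name, out of 37991 genes in the table of counts. The study compared female with male BECs to learn how the sexes differ. The groups were 3 libraries from females and 3 from males of strain c57/Bl6, aged 12 weeks, with cells freshly isolated from tibia and sorted by endomucin expression, and the labels name no transgene or treatment. The methods of the paper instead give strain C57BL/6J for all wildtype work, tibiae and femurs as the source of the marrow cells, and capture of BECs on magnetic beads coated with endomucin antibody. The labels do not say whether each library came from 1 mouse, so a spread between libraries may in part be technical. Serpina3n was chosen by its male-female difference in the counts of these same 6 libraries, and the other members were listed with that result known. Their male-female values are therefore given as a description with no test.

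Serpins are single-chain proteins that trap proteases. A protease cuts the exposed reactive centre loop of the serpin, the loop inserts into the body of the protein, and the enzyme stays bound and inactive. The loop sequence sets which protease is caught, and some family members have lost this activity and serve as chaperones or secreted signals. In the mouse, a single ancestral Serpina3 gene has expanded into a cluster of paralogues on chromosome 12, to which Serpina3n, Serpina3g, Serpina3f and Serpina3i belong.

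Total counts per library lay between 47678806 and 58325745, and levels are given as CPM, the count divided by library size after scaling with TMM factors. At this depth 3 counts, taken as the lowest level a library can show, correspond to between 0.0477 and 0.0639 CPM, which covers counting error only. The 12 endothelial markers, all detected, summed to 326 to 438 CPM in females and 193 to 275 CPM in males. The 12 neutrophil markers summed to 18316 to 22335 CPM in females and 31213 to 42740 CPM in males. The libraries thus held far more neutrophil than endothelial marker RNA despite the selection on endomucin. In such bulk RNA, fewer cells of a type cannot be told apart from less RNA per cell.

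Serpins meet their protease at the reactive centre loop. The coding DNA of the reactive centre loop, from the hinge up to the conserved stretch that follows it, is shown for the 4 Serpina3 paralogues for this reason, read from GENCODE M39 transcripts. Capitals mark bases that differ from Serpina3n. The Serpina3f loop has 84 bases against 81 in the others and is written without capitals.
Serpina3n: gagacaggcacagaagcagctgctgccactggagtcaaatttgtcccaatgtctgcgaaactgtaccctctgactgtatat
Serpina3i: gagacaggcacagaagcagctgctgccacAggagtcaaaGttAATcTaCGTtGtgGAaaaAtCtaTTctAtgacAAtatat
Serpina3g: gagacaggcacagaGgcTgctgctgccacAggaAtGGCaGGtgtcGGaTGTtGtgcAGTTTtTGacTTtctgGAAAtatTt
Serpina3f: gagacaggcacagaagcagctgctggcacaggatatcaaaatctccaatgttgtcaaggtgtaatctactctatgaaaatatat
Within the 81 bases, Serpina3i differed from Serpina3n at 19 positions and Serpina3g at 29. The opening hinge is nearly shared, and the differences gather after it. Over the whole coding sequence, Serpina3n was 83.1% identical to Serpina3i, 76.4% to Serpina3f and 73.4% to Serpina3g. Because of this likeness the authors' counting could have moved reads between paralogues. Of all 40-base stretches of a Serpina3n transcript, 8.88% also occur in another gene of the table, against 22.4% for Serpina3i, 21.7% for Serpina3g and 18.7% for Serpina3f. For 100-base stretches the shares were 0.137%, 2.24%, 4% and 3.52%. Counting also genes of GENCODE M39 that have no row in the table, the Serpina3g shares were 57.9% for 40 bases and 54.2% for 100 bases, most of them in the annotated pseudogene Gm56487, and those of the other 3 did not differ from the values above. The other 5 members shared no such stretch of 100 bases with another gene.

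The stretches around the transcription start are shown because these neighbouring paralogues had different levels in the same libraries. The RefSeq table on GRCm38.p6 held 8 of the 9 members and not Serping1, and each window runs from 250 bases before to 50 bases after the start. Capitals mark a 13-base run common to the 4 windows, CAGAGCACAGCTT, and matches on both strands to TTCNNNGAA (the STAT pattern), AGAACA (the steroid receptor half-site) and AATAAATA (TATA-like).
Serpina3n, chr12:104406458-104406757, plus strand: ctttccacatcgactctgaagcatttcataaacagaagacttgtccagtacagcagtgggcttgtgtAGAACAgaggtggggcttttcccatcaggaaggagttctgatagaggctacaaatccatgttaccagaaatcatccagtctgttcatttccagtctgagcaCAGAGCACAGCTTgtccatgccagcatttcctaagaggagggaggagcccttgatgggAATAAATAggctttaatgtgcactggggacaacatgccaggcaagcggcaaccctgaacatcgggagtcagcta
Serpina3i, chr12:104262872-104263171, plus strand: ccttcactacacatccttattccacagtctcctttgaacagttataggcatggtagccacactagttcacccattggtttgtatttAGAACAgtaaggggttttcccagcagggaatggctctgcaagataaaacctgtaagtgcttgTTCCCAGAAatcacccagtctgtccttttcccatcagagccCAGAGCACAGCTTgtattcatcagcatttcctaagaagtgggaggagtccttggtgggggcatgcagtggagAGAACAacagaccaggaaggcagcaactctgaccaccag
Serpina3f, chr12:104214294-104214593, plus strand: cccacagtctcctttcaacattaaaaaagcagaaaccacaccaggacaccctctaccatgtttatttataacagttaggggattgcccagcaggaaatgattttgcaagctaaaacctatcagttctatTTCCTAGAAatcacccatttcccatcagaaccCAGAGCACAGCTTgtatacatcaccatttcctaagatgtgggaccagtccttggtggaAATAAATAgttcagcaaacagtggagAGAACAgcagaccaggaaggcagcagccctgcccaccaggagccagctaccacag
Serpina3g, chr12:104235897-104236196, plus strand: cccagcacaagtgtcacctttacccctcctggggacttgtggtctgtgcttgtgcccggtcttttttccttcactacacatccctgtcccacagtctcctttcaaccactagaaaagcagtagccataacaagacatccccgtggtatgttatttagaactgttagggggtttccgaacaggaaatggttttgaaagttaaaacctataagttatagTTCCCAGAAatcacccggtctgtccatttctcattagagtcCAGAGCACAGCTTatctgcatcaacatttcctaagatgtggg
The 13-base run was chosen after the sequences were compared, and 0.0222% of 27025 promoter windows hold it. It begins 82 bases before the start in Serpina3n, 89 in Serpina3f and 61 in Serpina3i, and 8 bases after the listed start in Serpina3g. The STAT pattern was found in Serpina3f (121 bases before the start), Serpina3i (102 bases) and Serpina3g (33 bases), and in Serpinb2 10 bases after the start, but its letters are not in the Serpina3n window, and 8.47% of all windows hold it. AGAACA was found in Serpina3n (183 bases before the start), Serpina3f and Serpina3i, against 19.0% of all windows. AATAAATA lies 24 bases before the start in Serpina3n and 31 bases in Serpina3f, against 2.59% of all windows. None of the 8 windows held TTGCGCAA, a C/EBP pattern found in 0.185% of all windows. The matches are descriptions of letters, and no binding was measured.

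Serpina3n encodes a secreted inhibitor of granzyme B, cathepsin G and related proteases, the mouse counterpart of human antichymotrypsin. It had 15, 20 and 41 counts in female replicates 1, 2 and 3 and 466, 318 and 427 counts in male replicates 1, 2 and 3. Scaled to depth, this was 0.239, 0.378 and 0.873 CPM in females and 8.85, 6.45 and 9.0 CPM in males. The sexes did not overlap, and the lowest male library was 7.39 times the highest female library. Means were 0.497 ± 0.334 CPM (SD, n = 3) in females and 8.10 ± 1.43 CPM (SD, n = 3) in males. The log2 fold change of males over females was 4.05 (standard error 0.43, edgeR), a 16.6-fold difference. It lay beyond the size of the fold change of 99.96% of the 19480 genes tested, a rank that follows from choosing Serpina3n by this difference. Within females the libraries spread more in relative terms than within males, with female replicate 3 the highest.

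The 3 other listed paralogues had log2 fold changes below 0. Serpina3g, an intracellular inhibitor of cysteine cathepsins, had 70.3, 90.6 and 69.3 CPM in the female libraries and 44.7, 69.4 and 74.4 CPM in the male libraries. The sexes overlapped, with male replicate 1 the lowest, and the log2 fold change was -0.29 (standard error 0.19). Serpina3f had 18.4, 16.2 and 16.4 CPM in females and 10.1, 11.8 and 16.8 CPM in males. Male replicate 3 fell among the females, and the log2 fold change was -0.40 (standard error 0.20). Serpina3i was scarce, with 1.22, 1.40 and 2.04 CPM in females and 0.987, 1.46 and 1.01 CPM in males. The sexes overlapped, at a log2 fold change of -0.43 ± 0.35 (SE).

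**Figure D1:**
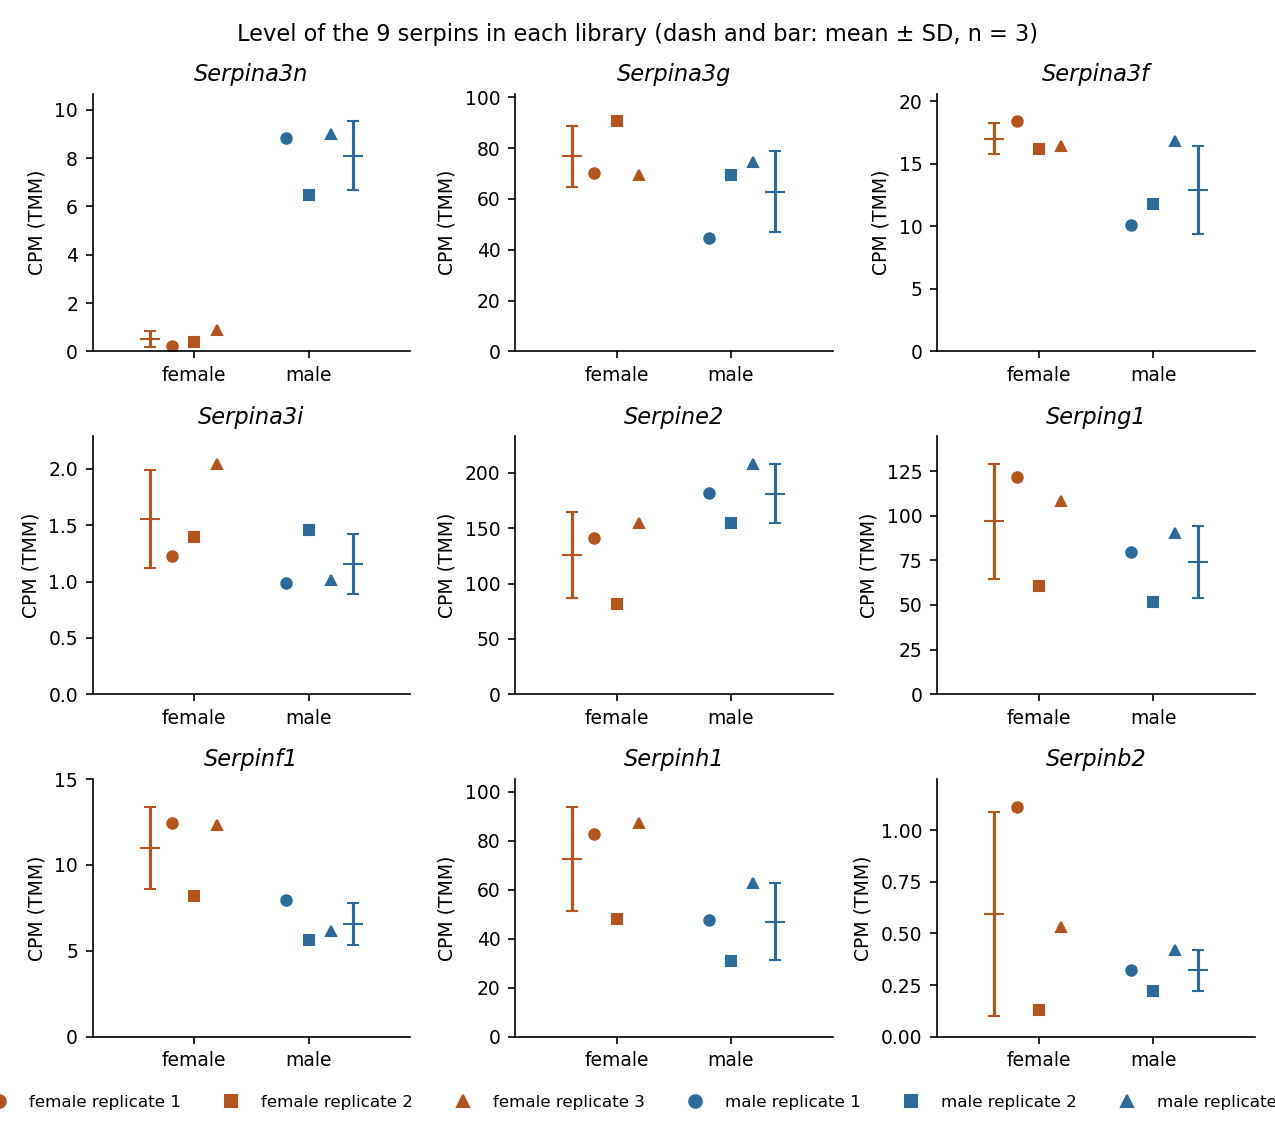
Level of each of the 9 serpins (CPM with TMM factors, linear axes from 0) in the 3 female and 3 male libraries, with points for libraries and a dash with bars for the mean ± SD. Serpina3n lies below 1 CPM in every female library and above 6 CPM in every male library, while Serpina3g, Serpina3f and Serpina3i show overlapping sexes.

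Over the cluster of 14 Serpina3 rows Serpina3n was a larger share in males, while the summed level overlapped between the sexes. Summed over these rows, the libraries had 95.0, 112 and 93.7 CPM in females and 71.4, 94.8 and 111 CPM in males. Serpina3n made up 0.251%, 0.339% and 0.932% of the summed counts in females and 12.4%, 6.81% and 8.12% in males. Serpina3g made up 73.9% to 81.2% in females and 62.6% to 73.3% in males. With the rows summed before the fit, the log2 fold change was -0.12 (standard error 0.16). Of the paralogues that are no members, Serpina3m had 0.494, 0.386 and 0.759 CPM in males against 0.111, 0 and 0.298 CPM in females, without overlap (log2 fold change 2.01 ± 0.89 (SE), adjusted p = 0.502, edgeR). Serpina3m passed the filter on low counts through its male libraries, so its values are a description. Serpina3k was also scarce, at 1.86 ± 1.36 (SE) on the log2 scale with overlap (adjusted p = 0.704, edgeR). Both were named after their values were seen. Serpina3c also had all males (3.87, 2.76 and 5.06 CPM) above all females (1.80, 0.643 and 2.07 CPM), a difference of 1.37 ± 0.42 (SE) on the log2 scale whose adjusted p was 0.319 in edgeR's quasi-likelihood test.

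**Figure D2:**
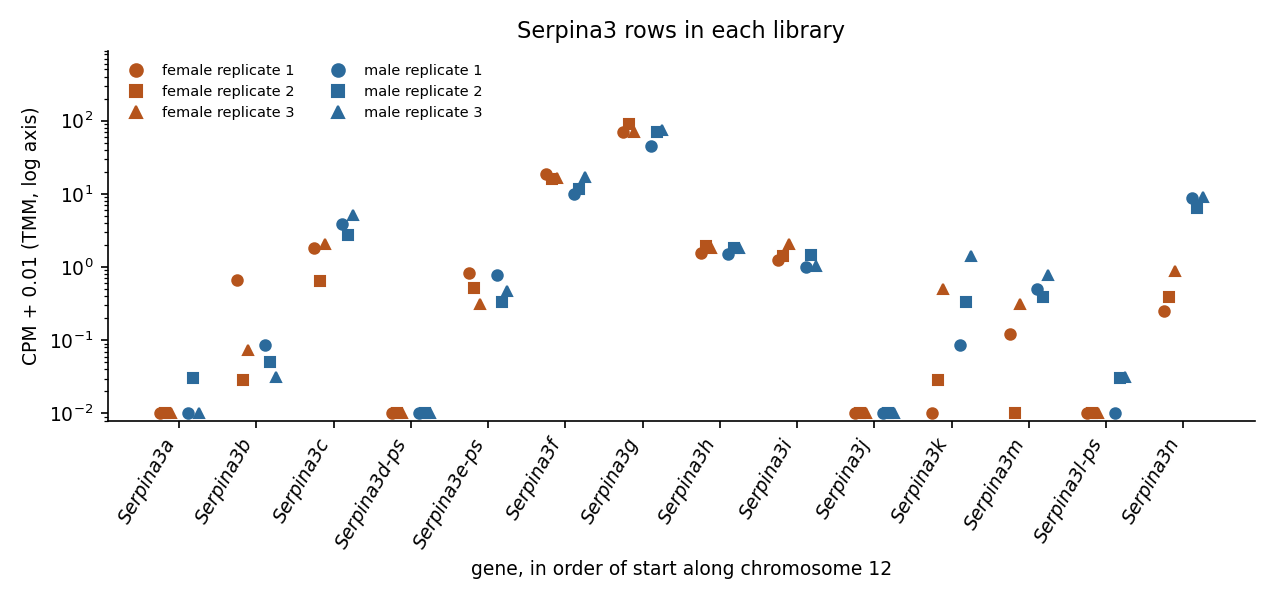
CPM of every Serpina3 row in each library, with 0.01 added and a log axis, in order of start along chromosome 12. Serpina3g and Serpina3f lead in all libraries, and Serpina3n separates the male from the female libraries most widely.

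Of the secreted inhibitors of clotting and complement enzymes, Serpine2 had the highest CPM. It encodes protease nexin, an inhibitor of thrombin and the plasminogen activators. It had 141, 81.8 and 155 CPM in females and 182, 154 and 208 CPM in males. Female replicate 3 and male replicate 2 nearly coincided, so the sexes overlapped narrowly. The log2 fold change was 0.53 (standard error 0.22), or 1.44-fold. Serping1, which encodes the inhibitor of the first complement proteases and of kallikrein, had 122, 60.6 and 108 CPM in females and 79.7, 51.7 and 90.6 CPM in males. The sexes overlapped, and the log2 fold change was -0.39 (standard error 0.27). Serpinb2, an inhibitor of urokinase made by activated monocytes, was near the limit of detection with 70, 7 and 25 counts in females and 17, 11 and 20 in males. Female replicate 1 stood at 1.11 CPM and the other libraries at 0.132 to 0.533 CPM. The log2 fold change of Serpinb2 was -0.88 (standard error 0.71), and -0.03 without female replicate 1. Its gene body also overlaps that of Serpinb10 on the same strand in GENCODE M39, so reads of the overlap could belong to either.

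The members that do not inhibit proteases were both lower in males on average. Serpinf1 encodes pigment epithelium-derived factor, a secreted protein known to restrain vessel growth. It had 12.4, 8.21 and 12.3 CPM in females and 7.93, 5.64 and 6.16 CPM in males. The sexes did not overlap, although female replicate 2 and male replicate 1 were close, and the log2 fold change was -0.74 (standard error 0.22). Serpinh1 encodes the collagen chaperone of the endoplasmic reticulum. It had 82.7, 48.1 and 87.1 CPM in females and 47.6, 31.1 and 62.7 CPM in males, with overlap and a log2 fold change of -0.63 (standard error 0.28).

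All 9 members passed the filter on low counts. Serpina3n was the member with all males above all females, as were 7.25% of the 19480 genes tested, and Serpinf1 the member with all males below all females, as were 7.29%. The log2 fold change was above 0 for Serpina3n and Serpine2 and below 0 for the other 7, with a median of -0.40 against -0.0012 over all genes tested. These counts describe genes picked with the comparison known, and nothing is read from them.

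**Figure D3:**
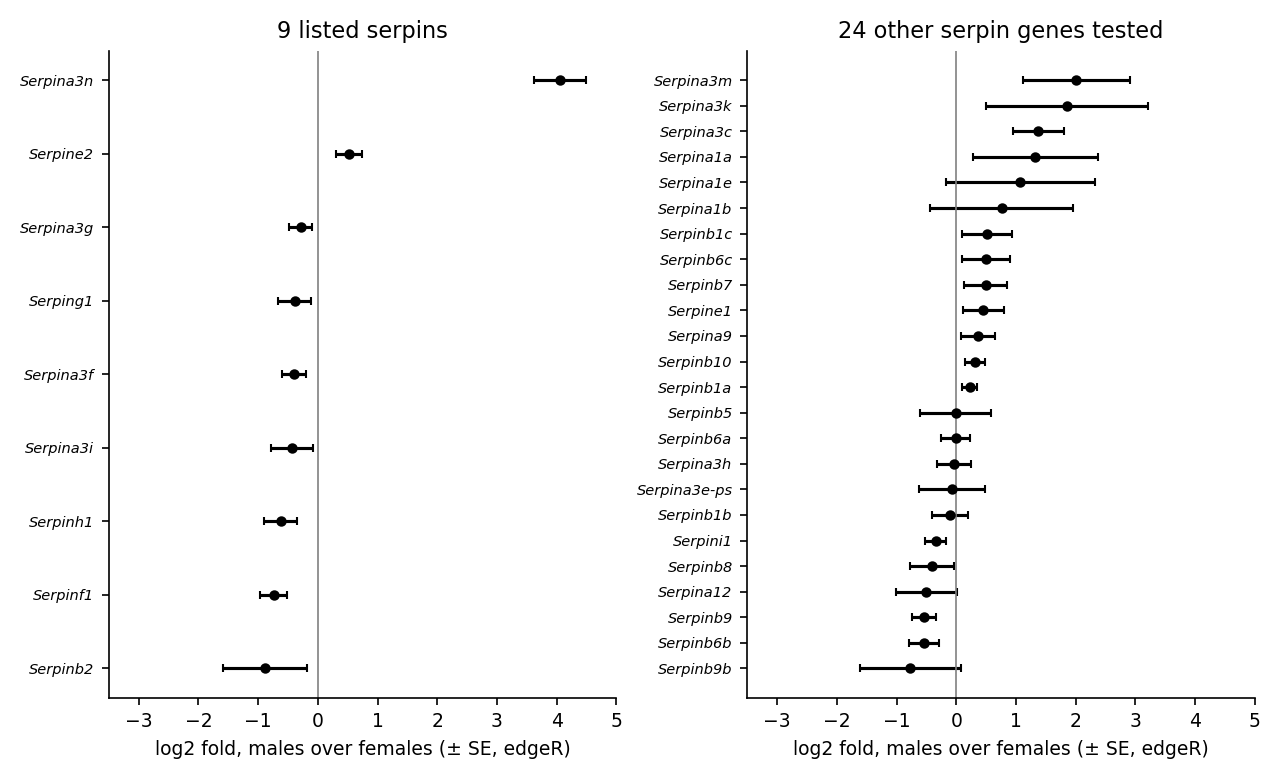
Log2 fold change of males over females with its standard error (edgeR) for the 9 listed serpins on the left and the 24 other serpin genes tested on the right. Serpina3n at 4.05 lies apart from the other members, which lie between -0.88 and 0.53.

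Per kilobase of the representative transcript, the order of levels in females was Serpine2 (59.7 ± 18.4 CPM per kb), Serping1 (51.3 ± 17.0), Serpina3g (37.0 ± 5.81), Serpinh1 (24.8 ± 7.29), Serpina3f (7.44 ± 0.535), Serpinf1 (4.28 ± 0.938), Serpina3i (0.680 ± 0.189), Serpinb2 (0.279 ± 0.232) and Serpina3n (0.164 ± 0.110, SD, n = 3 each). Libraries overlapped between Serpine2 and Serping1, between Serping1 and Serpina3g and between Serpinb2 and Serpina3n, and between no other neighbours. In males Serpina3n took the 6th place, at 2.68 ± 0.472 CPM per kb (SD, n = 3), and overlapped Serpinf1 at 2.56 ± 0.469 (SD, n = 3). Serpine2 stood first in males at 86.0 ± 12.7 CPM per kb (SD, n = 3), above Serping1 without overlap. The place of Serpine2 depends on the length used. Over the union of all GENCODE exons, 12315 bases for this gene, it took the 4th place in females and the 3rd in males.

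Serpine2, Serping1, Serpinf1 and Serpinh1 are made by marrow stromal cells among others, and 13 stromal markers were set beside them. Replicate 2 was the lowest library within each sex for all 4 genes and for the stromal, endothelial and megakaryocyte sums, so the low replicate 2 is not particular to stromal markers. The order of replicates 1 and 3 differed from the stromal sum for Serping1 in females and for Serpinf1 in both sexes. The stromal sum was 3912, 2223 and 4073 CPM in females and 2269, 1563 and 3294 CPM in males. Cxcl12 and Lpl, the chemokine and the lipase of reticular stroma, make up most of this sum. After these values were seen, each gene was set against the sum. Serpinh1 had between 1.90 and 2.17 CPM per 100 CPM of stromal markers over all 6 libraries. Serping1 had between 2.66 and 3.51, and Serpinf1 between 0.187 and 0.369 with male replicate 3 the lowest. Serpine2 departed from this, with 3.60, 3.68 and 3.80 in females and 8.01, 9.88 and 6.31 in males, so that the sexes did not overlap. These ratios show unequal change of the 2 quantities and were not tested.

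Some of the marker sums separated the sexes, as Serpina3n did. The neutrophil sum did not overlap between the sexes, with all 12 markers detected, and its mean was 1.80 times as high in males. S100a8 and S100a9 make up most of this sum. Over the 12 markers the log2 fold changes ranged from -0.61 (Mpo) to 1.06 (S100a8), with a median of 0.76. The endothelial sum was 0.604 times as high in males, without overlap, and the stromal sum 0.698 times as high, with overlap. Also without overlap, 9 erythroid markers summed to 1.44 times and 10 macrophage markers to 0.746 times the female mean. The B cell, T and NK cell, basophil and mast cell, and megakaryocyte sums overlapped between the sexes. The part of these in the Serpina3n difference was not tested. Serpina3n is also a known product of liver, and 15 liver genes were added after their values were seen, all of them detected. Alb was the highest, at 5.71 CPM in female replicate 3 and 4.81 CPM in male replicate 3. The 15 genes summed to 0.811, 0.832 and 11.4 CPM in females and 1.84, 3.67 and 14.8 CPM in males. The list includes Serpina3k and Serpina3m. Replicate 3 had the highest liver sum and the highest Serpina3n level within each sex, and the liver sums overlapped between the sexes. Their part in the Serpina3n difference was not tested.

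**Figure D4:**
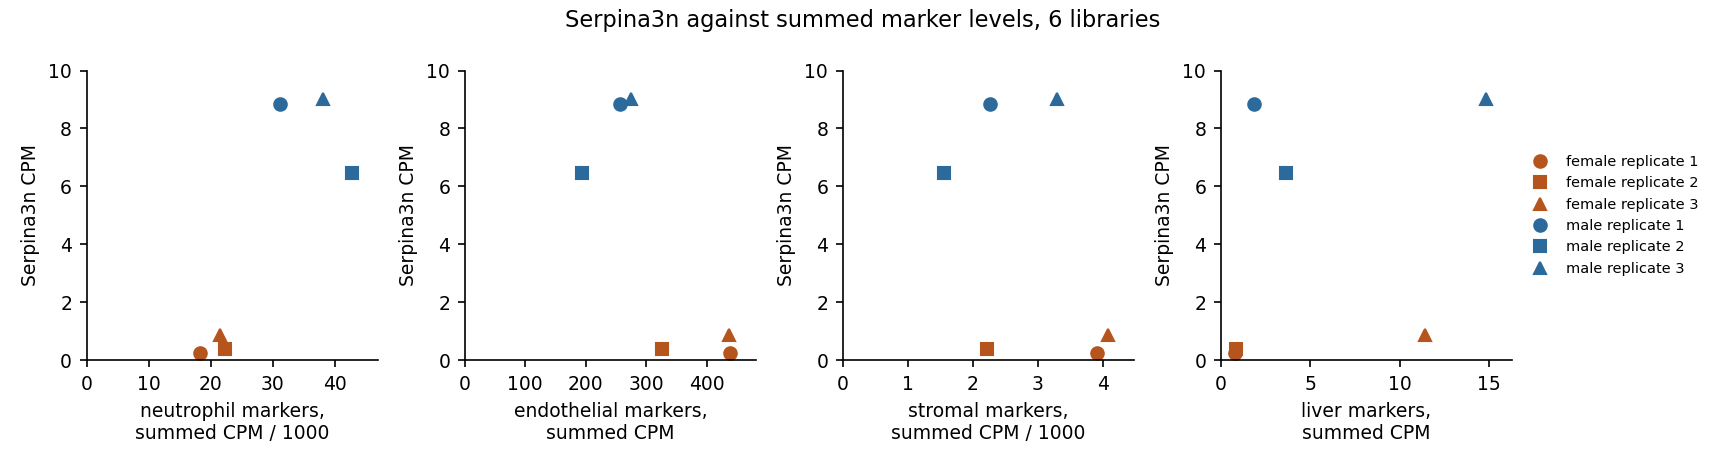
Serpina3n (CPM, vertical axes from 0 to 10) against the summed CPM of neutrophil, endothelial, stromal and liver markers in the 6 libraries. The male libraries lie to the right of the females for neutrophil markers, to the left for endothelial markers, and overlap them for stromal and liver markers.

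The genes most like Serpina3n over the 6 libraries were found by the root mean square difference of log2 levels, each centred on its own mean, among 14923 genes with a mean of at least 1 CPM. The nearest were the Y-linked genes Ddx3y (0.917), Eif2s3y (0.986) and Uty (1.06), which mark the male libraries. Their means were 1.53, 1.17 and 1.74 CPM in females and 58.1, 55.1 and 14.9 CPM in males. These female means lie above that of Serpina3n (0.497 CPM). The source of these female reads was not tested, nor whether the female counts of Serpina3n include such reads. Then followed Ildr2 (1.09), 6430571L13Rik (1.27), Cxcr1 (1.33), Cstdc5 (1.34), 1110018N20Rik (1.36), Serpina3c (1.37) and Stfa1 (1.37). Cxcr1 is a chemokine receptor of neutrophils, and Stfa1 encodes a stefin, a cysteine protease inhibitor. Among these, Stfa1 had 3.25 CPM in females and 8.33 CPM in males on average. For Serpine2 the nearest genes lay at 0.0955 for Dact1, 0.104 for H2ac1, 0.132 for Tmem120b, 0.152 for Dnah6 and 0.156 for Igfbp3. This distance grows with the range of a profile, so the distances of Serpine2 and Serpina3n are not comparable. The highest library was 37.7 times the lowest for Serpina3n and 2.54 times for Serpine2.

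The other serpin genes were then tested, to see whether the family at large differed between the sexes. Of 60 such genes in the table, 24 passed the filter. In edgeR's quasi-likelihood test none of the 24 passed an adjusted p of 0.05, corrected over the whole table, against 0.0411% of all genes in either direction (0.0257% higher and 0.0154% lower in males). At an unadjusted p under 0.05, 2 were higher and 1 lower in males, against 9.79% of all genes, and DESeq2's Wald test called 1, Serpina3c, against 1.99% of the genes it tested. With the replicate numbers as a block, 2.2% of all genes were called, Serpina3c among them. The median log2 fold change of the 24 was 0.27, and 6 had all males above all females and 2 all males below, against 7.25% and 7.29% of all genes. Serpina3m, which passed the filter through its male libraries, is among these 6 and among the 2 higher at an unadjusted p under 0.05.

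Serpinb6a, an intracellular inhibitor of cathepsin G, was the most abundant of these with 308 ± 55.4 CPM (SD, n = 3) in females and 306 ± 118 CPM (SD, n = 3) in males. Serpinb1a, the elastase inhibitor of neutrophils, had 182 ± 12.2 and 212 ± 24.5 CPM, with a log2 fold change of 0.22 (adjusted p = 0.606, edgeR). Serpinb9, the inhibitor that guards cells against granzyme B, had 14.2 ± 2.81 and 9.76 ± 1.67 CPM (log2 fold change -0.54, adjusted p = 0.404, edgeR). Serpinb10, a serpin of blood cells, had 9.03 ± 0.280 and 11.3 ± 1.25 CPM without overlap (adjusted p = 0.568, edgeR). Serpini1, which encodes neuroserpin, had 9.15 ± 0.904 and 7.20 ± 0.489 CPM, also without overlap (adjusted p = 0.567, edgeR). Serpina9, Serpinb7 and Serpinb6b were below 7 CPM in every library, and their sexes did not overlap.

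The serine proteases that serpins act on gave no call in edgeR's test, with 0 of 26 tested genes past the adjusted threshold. Before adjustment, at a p under 0.05, 3 were higher and 4 lower in males, against 9.79% of all genes in either direction. The proteases were listed with earlier results of these data known. DESeq2's Wald test called 2, Cfd and Htra3, both lower in males, against 1.99% of the genes it tested. The enzymes of neutrophil granules overlapped between the sexes. Elane, which encodes neutrophil elastase, had 144 ± 56.4 CPM (SD, n = 3) in females and 161 ± 62.1 CPM (SD, n = 3) in males, and Prtn3, Ctsg and the basophil protease Prss34 also overlapped. Gzmb, which encodes granzyme B, had 0.636, 0.908 and 0.873 CPM in females and 1.04, 2.07 and 1.39 CPM in males (log2 fold change 0.90 ± 0.39 (SE), adjusted p = 0.481, edgeR).

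Cfd, the complement protease adipsin of fat cells, showed the widest gap of the proteases. It had 6.17, 5.90 and 15.8 CPM in females and 0.607, 1.42 and 0.506 CPM in males. On the log2 scale males differed by -3.46 ± 0.51 (SE), and edgeR gave an adjusted p of 0.0547. Htra3, a secreted protease, had 6.63, 4.29 and 6.94 CPM in females and 2.11, 1.18 and 2.19 CPM in males (log2 fold change -1.70 ± 0.32 (SE), adjusted p = 0.0893, edgeR). Adipoq, the stromal marker that is also a fat cell hormone, had 147, 76.5 and 162 CPM in females and 39.5, 22.1 and 58.0 CPM in males, without overlap, and its part in the values of Cfd and Htra3 was not tested. C1ra, the complement protease that Serping1 inhibits, had 44.3 ± 13.9 and 28.2 ± 4.44 CPM with overlap (adjusted p = 0.363, edgeR). F10, Mcpt8 and Hpn did not overlap between the sexes, with adjusted p of 0.356, 0.585 and 0.430 in edgeR.

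Protease inhibitors outside the serpin family gave 0 calls of 23 tested genes in edgeR's test, with 6 higher and 2 lower in males at an unadjusted p under 0.05, against 9.79% of all genes. DESeq2's Wald test called 7, of which 6 were higher in males, against 1.99% of the genes it tested. All males lay above all females for 8 of the 23 and below for 1, against 7.25% and 7.29% of all genes. These inhibitors were listed with earlier results of these data known, so the counts are descriptions. Wfdc21, a small secreted inhibitor-like protein, had 134, 164 and 149 CPM in females and 246, 351 and 316 CPM in males. On the log2 scale males differed by 1.03 ± 0.15 (SE), and edgeR gave an adjusted p of 0.0547. Slpi, which encodes the secreted elastase inhibitor of leukocytes and epithelia, had 96.4, 126 and 111 CPM in females and 173, 199 and 199 CPM in males (log2 fold change 0.77 ± 0.13 (SE), adjusted p = 0.0701, edgeR).

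The stefins, cysteine protease inhibitors of neutrophils, shared this direction. Stfa2l1 differed by 1.02 ± 0.16 (SE) on the log2 scale (adjusted p = 0.0547, edgeR), and Stfa1, Stfa2 and Stfa3 had 1.36, 0.94 and 1.14, with adjusted p between 0.175 and 0.219 in edgeR. These near-identical copies could share reads. A2m, the broad plasma protease trap, went the other way at -1.45 (standard error 0.32, adjusted p = 0.158, edgeR). Cst3, which encodes cystatin C and was the most abundant inhibitor, had 604 ± 65.3 and 541 ± 152 CPM with overlap, and Timp2 and Cstb overlapped too. For 11 of the 12 neutrophil markers all males lay above all females, against 7.25% of all genes, while Mpo overlapped at a log2 fold change of -0.61. The part of these markers in the values of Slpi, Wfdc21 and the stefins was not tested.

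Serpina3n is known as an acute-phase gene, and a list of 26 acute-phase and steroid-response genes was examined for this reason. The list was chosen with earlier results of these data known, so its counts are descriptions. In edgeR's test 0 of 24 tested genes passed the adjusted threshold, and 8 were higher and 1 lower in males at a p under 0.05 before adjustment, against 9.79% of all genes. DESeq2's Wald test called 7, 6 of them higher, against 1.99% of the genes it tested. All males lay above all females for 9 genes, against 7.25% of all genes. The neutrophil marker sum was 1.80 times as high in males without overlap, and its part in the values of this list was not tested. Socs3, the feedback inhibitor of STAT signalling, had 10.1, 8.48 and 9.65 CPM in females and 15.6, 20.5 and 14.9 CPM in males (log2 fold change 0.85 ± 0.17 (SE), adjusted p = 0.115, edgeR). Cebpd, an acute-phase transcription factor, had 38.3, 55.3 and 46.2 CPM in females and 66.7, 92.1 and 84.0 CPM in males (log2 fold change 0.80 ± 0.16 (SE), adjusted p = 0.115, edgeR).

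Among the acute-phase products, Lcn2, also a granule protein of neutrophils, had a log2 fold change of 0.63, Hp (haptoglobin) 0.61, Orm1 0.73 and Lrg1 0.48, with adjusted p between 0.217 and 0.343 in edgeR. Dusp1, a phosphatase induced by stress and steroids, had 0.78 (adjusted p = 0.295, edgeR). Tsc22d3, a common marker of the glucocorticoid response, had 115 ± 4.33 CPM (SD, n = 3) in females and 125 ± 11.1 CPM (SD, n = 3) in males, with overlap. C3 overlapped as well, with a log2 fold change of 0.04.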

How the data were processed

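Counts of reads per gene in 6 libraries (3 female, 3 male) were used as the authors deposited them, whole numbers without normalization. The paper gives alignment to GRCm39 with STAR and counting with featureCounts, while the submitters' processing notes name TopHat2 2.0.11 and the mm9 (NCBIM37) build. The annotation release and strand setting are not given in the sources used here. Read length is 40 nucleotides in the labels and 100 in the paper. GENCODE M39 symbols matched 31073 of 37991 identifiers, holding 96.2% of counts.

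Males were compared with females in edgeR 4.0.16 (R 4.3.3) with TMM, the default low-count filter, a robust quasi-likelihood fit and p-values adjusted by Benjamini-Hochberg across 19480 genes. Sex was the only term. DESeq2 1.42.0 was an alternative. The fits were tested on simulated data. No 2 libraries were within sampling noise (chi-square per degree of freedom at least 33.6). Symbols starting with Serpin outside the 9 members formed the list of other serpins. The members and lists were chosen with earlier results of these data known. Named beside the members were, in each list but the cell type markers, genes called, the 5 most abundant and up to 6 with the largest fold change among those of at least 1 CPM without overlap of the sexes, and, by centred log2(CPM + 0.1), the 10 genes nearest to Serpina3n and 5 to Serpine2. The same rule was run on the cell type markers, but its picks there are not all named, and these markers are given as sums. Alternatives were other scalings, filters, tests, a replicate block, abundant genes left out and each library left out.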

Additional observations from a re-analysis of the deposited data

How the results depend on the processing

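The fold change of each of the 9 serpins kept its sign in all planned refits of its own counts. Counts summed over all Serpina3 rows, most of them from Serpina3g, gave -0.12, a value of the cluster and not of Serpina3n alone. For Serpina3n the log2 fold change lay between 3.71 and 4.72 with each library left out, highest without female replicate 3, and was 2.60 as a ratio of mean CPM with a pseudocount of 1. Serpinb2 could not be fitted with at least 10 counts required in every library.

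The 8 genes called over all genes became 14 with total counts alone, 98 with no low-count filter, 354 in DESeq2's Wald test (1.99% of the genes it tested) and 428 with the replicate block (2.20%). Leaving out libraries gave 5 to 96, the lowest without female replicate 2 and the highest without male replicate 3. Other serpins called rose from 0 to 1 (Serpina3c) in DESeq2 and with the block. Serine proteases called rose from 0 to 2 with no filter and in DESeq2 and to 3 with the block. Other protease inhibitors called rose from 0 to 1 with total counts alone, 3 with no filter and 7 in DESeq2 and with the block, and were 0 to 2 with libraries left out (Wfdc21 without male replicate 1, Wfdc21 and Stfa2l1 without male replicate 3). Acute-phase and steroid-response genes called rose from 0 to 1 with no filter and to 7 in DESeq2 and with the block. The cause of these changes was not tested. Same-numbered libraries of the sexes deviated together with correlations of 0.248, 0.0613 and 0.361 across genes. The titles number the replicates without stating a pairing, and the main fit did not take the numbers as pairs. Whether same-numbered libraries share a factor was not tested. Depth limits Serpinb2, Serpina3i and the female levels of Serpina3n most.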

Other observations

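The collagens that the Serpinh1 chaperone folds were lower in males on average for all 13 genes listed, with a median log2 fold change of -0.62 against -0.0012 over all genes. In edgeR's quasi-likelihood test 0 of 13 had an adjusted p under 0.05, and 7 were lower at an unadjusted p under 0.05, against 9.79% of all genes in either direction. The collagens were listed with earlier results of these data known, so these counts are descriptions. The summed collagens were 0.713 times as high in males, beside 0.698 for the stromal and 0.604 for the endothelial marker sum, and replicate 2 was the lowest of each sex in all 3 sums. The part of these markers in the collagen values was not tested. Col4a2, a basement membrane collagen, had 59.8, 33.8 and 55.2 CPM in females and 27.4, 16.3 and 32.0 CPM in males, without overlap (log2 fold change -0.98 ± 0.27 (SE), adjusted p = 0.269, edgeR). Col1a1, the main collagen of bone, had 78.1 ± 18.9 CPM (SD, n = 3) in females and 69.7 ± 23.2 CPM (SD, n = 3) in males, with overlap. Col1a2, its partner chain and the most abundant of the list, also overlapped at a log2 fold change of -0.31, as did Col4a1 at -0.83, Col6a1 at -0.90 and Col6a2 at -0.78.

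Of 12 genes for receptors and binding partners of serpins, 0 had an adjusted p under 0.05 in edgeR's test, and 1 was higher and 3 lower in males at an unadjusted p under 0.05, against 9.79% of all genes. Earlier results of these data were known when these genes were listed. Plaur, the urokinase receptor, had 37.6, 47.9 and 39.0 CPM in females and 61.7, 74.8 and 55.9 CPM in males (log2 fold change 0.63 ± 0.14 (SE), adjusted p = 0.176, edgeR). Lrp1, the receptor that clears serpin-protease complexes, had 261, 215 and 232 CPM in females and 197, 126 and 173 CPM in males (log2 fold change -0.51 ± 0.17 (SE), adjusted p = 0.343, edgeR). Pnpla2, a receptor-like lipase bound by the Serpinf1 product, overlapped between the sexes at 70.6 ± 11.2 and 74.2 ± 2.07 CPM (SD, n = 3). Rpsa, Sort1 and Sdc4 overlapped too, at log2 fold changes of -0.20, -0.22 and -0.0031. The neutrophil marker sum was 1.80 times and the macrophage sum 0.746 times as high in males, both without overlap, and their part in the values of Plaur and Lrp1 was not tested.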
